A study of Mus musculus and Rattus norvegicus with 8 samples.

Results

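The transcripts described here are those of lung from mice and rats that breathed for themselves. The series holds 8 oligonucleotide arrays, each from lung RNA, and 4 of them carry control animals: mouse controls 1 and 2 and rat controls 1 and 2. The other 4 arrays come from mechanically ventilated animals and were not used here. The control mice were male C57BL6 animals of 7 to 8 weeks that were not ventilated, and their RNA was hybridised to the MG_U74Av2 array. The control rats were male Wistar animals of 8 weeks that breathed spontaneously through tracheal cannulas of the kind used for the ventilated rats, and their RNA was hybridised to the RG_U34A array. The controls of the 2 species therefore differ in species, strain, cannulation and array at once, and these cannot be told apart. The labels state n = 2 for each control group and say nothing of pooling. No group is set against another within a species, and the arrays of the 2 species hold different probes and were scaled separately, so no test was run and every comparison is a description.

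The lung exchanges gas across a thin wall made of flat alveolar type 1 cells, a basement membrane and the endothelium of the capillaries. Alveolar type 2 cells make surfactant, a film of lipid and the surfactant proteins A, B, C and D that lowers surface tension and binds microbes. Airways are lined by club cells, which secrete the protein encoded by Scgb1a1 and metabolise inhaled chemicals, and by ciliated cells, and resident macrophages clear the airspace. Ribosomal, cytoskeletal and mitochondrial transcripts are abundant in nearly every tissue and share the upper ranks with genes of these cell types.

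The brightest probe set stood for each gene with a single symbol, and genes were ranked by the mean of the deposited signals of the 2 control arrays. This gave 8251 mouse genes and 4736 rat genes. A percentile places a gene among all ranked genes of its array, with 50 in the middle, so a set of genes with no relation to signal would have a median near 50 and 10% of its members in the top 10%. The signal of a probe set depends on its probes as well as on the transcript, so ranks are ranks of signals and not of molecules. Eef1g, a translation elongation factor used in every cell, had mouse signals of 1.9 and 2.0, and the ribosomal protein gene Rps15 had mouse signals of 9.5 and 9.7. A low signal therefore does not show that a transcript was absent. In whole lung, fewer cells of a type and less RNA per cell cannot be told apart. The measured members of a gene list differ between the arrays, so its mouse and rat medians are not on the same base.

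A mouse array went against its label. Xist, the RNA of the inactive X chromosome that female cells make, had a signal of 927.3 on mouse control 1 and 5.2 on mouse control 2, although the labels call the mice male. The Y-linked gene Eif2s3y had signals of 10.2 and 95.8 on the same arrays, and the Y-linked gene Uty had 9.4 and 27.1. Kdm5d, also Y-linked, was near the bottom on both arrays, with signals of 3.4 and 3.2. These Y-linked genes were looked up after Xist had been seen. Values are given for each mouse array, and medians of gene lists are also given on mouse control 2 alone.

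Promoter sequences are printed here for 4 bright mouse genes. They are the brightest gene of the alveolar type 2, fibroblast, red blood cell and ribosomal protein lists that has an entry in the RefSeq promoter table, and each stretch is the 100 bases before the annotated start on GRCm38.p6. Capitals mark 3 motifs searched on both strands, which do not overlap here: TATAAA, the core of the TATA box, CCAAT, the CCAAT box, and CTCAAG, a core that the lung transcription factor Nkx2-1 is known to bind.
Sftpb (chr6:72304510-72304609, plus strand): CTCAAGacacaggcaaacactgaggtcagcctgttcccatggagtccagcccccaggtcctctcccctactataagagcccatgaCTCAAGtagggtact
Inmt (chr6:55174991-55175090, minus strand): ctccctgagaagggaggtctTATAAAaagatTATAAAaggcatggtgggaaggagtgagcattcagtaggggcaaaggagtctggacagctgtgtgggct
Hba-a1 (chr11:32283572-32283671, plus strand): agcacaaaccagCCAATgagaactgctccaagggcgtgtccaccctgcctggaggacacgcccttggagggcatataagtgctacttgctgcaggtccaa
Rpl41 (chr10:128549169-128549268, minus strand): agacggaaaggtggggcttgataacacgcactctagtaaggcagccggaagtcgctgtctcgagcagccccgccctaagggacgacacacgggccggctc
Sftpb encodes surfactant protein B and holds CTCAAG at positions -100 and -15, counted back from the start. Inmt encodes an N-methyltransferase and holds TATAAA at positions -80 and -69. Hba-a1 encodes alpha globin and holds CCAAT at position -88, while the stretch of Rpl41, a ribosomal protein gene, holds none of these letters. In the same 100-base window of all 32851 promoter sequences of the table, TATAAA was present in 5.56%, CCAAT in 18.9% and CTCAAG in 4.92%. A match is a description of letters and not of a bound site.

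Surfactant, globin and ribosomal protein transcripts led the mouse ranking. Sftpc, which encodes the hydrophobic surfactant protein C, ranked 1 with signals of 7669.5 and 6621 on mouse controls 1 and 2 (mean 7145 ± 741, SD, n = 2). Scgb1a1 followed at rank 2 with 7269 and 5965, and Hba-a1 at rank 3 with 6696 and 5760.4. Sftpc was the brightest gene on each mouse array taken alone. Rpl41 came next with 6051 and 6064, and then Tpt1, which encodes a growth-associated protein abundant in many cells, with 5795 and 5075. Inmt ranked 13 with 5049 and 3892, Sftpb ranked 14 with 4490.1 and 3830.2, and Ager, which encodes a receptor at the base of alveolar type 1 cells, ranked 15 with 4210.0 and 4102. Ly6e, a membrane-anchored surface protein gene, ranked 9 with 4689.7 and 5008, and Wdr92 ranked 10 with 5121 and 4243. Of the 30 brightest mouse genes, 24 were among the 30 brightest on each array taken alone.

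Sftpb led the rat ranking, with signals of 4892 and 4200.1 on rat controls 1 and 2 (mean 4546 ± 489, SD, n = 2). Chaperones came next: Hsp90ab1, a cytosolic chaperone gene, had 4581.5 and 4050.8, and Hspb1, a small heat shock protein gene, had 4395 and 4063. The beta globin gene Hbb ranked 5 with 4602 and 3535.5, and Gnas, which encodes the stimulatory G protein alpha subunit, ranked 6 with 4609.9 and 3222. Ribosomal protein genes held many of the following places, among them Rpl19 at rank 4 with 4178.5 and 3965 and Rpl24 at rank 7 with 4134 and 3676. RT1-CE12, a class I histocompatibility gene, ranked 10 with 4079 and 3358. Cyp2b2, a cytochrome P450 gene of a family with near-identical copies, ranked 25 with 3328 and 3045.5, and its probes may read related transcripts, which was not tested. Of the 30 brightest rat genes, 25 were among the 30 brightest on each array alone. Rat control 1 gave the higher signal for 29 of the 30, whereas mouse control 1 was the higher array for 20 of the 30 brightest mouse genes.

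**Figure D1:**
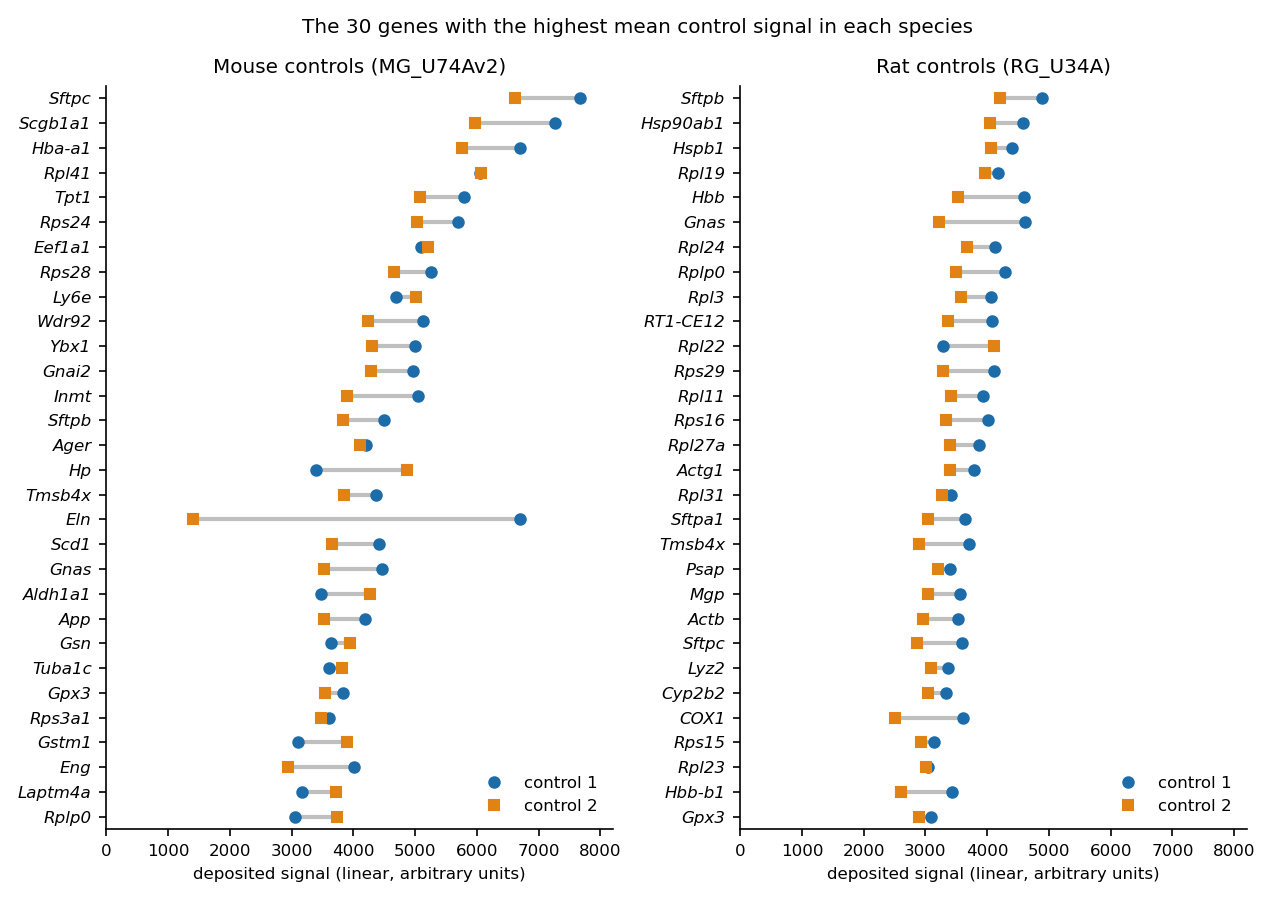
The 30 genes with the highest mean control signal in mouse (left) and rat (right). The horizontal axis is the deposited signal on a linear scale, circles are control 1, squares are control 2 and grey bars join the 2 arrays of a gene. Sftpc leads in the mouse at 7669.5 and 6621 and Sftpb in the rat at 4892 and 4200.1. The mouse gene Eln has the widest gap, with 6706 and 1400.2.

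Signal was spread over many genes in both species. The 10 brightest genes held 2.98% ± 0.203 of the summed gene signal in mouse controls and 4.04% ± 0.409 in rat controls (SD, n = 2 each), and the 100 brightest held 16.5% and 26.6%. The top 10% of genes held 51.6% of the signal in the mouse, against 7.27% for all genes below the median. In the rat the top 10% held 60.4%, against 5.35% for genes below the median. The rat array measures fewer genes, so the shares of the 2 species are not on the same base. Among the 100 brightest mouse genes, 15 encoded cytosolic ribosomal proteins, 6 were actin or tubulin cytoskeleton genes, 6 were fibroblast and matrix genes, 4 were alveolar type 2 genes and 50 were in none of the 35 lists. Among the 100 brightest rat genes, 28 encoded ribosomal proteins, 7 were cytoskeleton genes, 3 were fibroblast and matrix genes, 4 were alveolar type 2 genes and 38 were in no list.

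Alveolar type 2 genes as a list ranked near the top in both species. Their median percentile was 98.3 over 9 measured mouse genes and 97.6 over 8 measured rat genes, with 7 mouse and 6 rat members in the top 10%. Without mouse control 1 the mouse median was 98.2. Sftpc had rat signals of 3599 and 2866, at rank 23 of the rat genes, and Sftpa1, which encodes surfactant protein A, had 3643 and 3036 in the rat and was not among the ranked mouse genes. Napsa, an aspartic protease gene that helps process surfactant proteins, had mouse signals of 3207 and 2345, and Slc34a2, the phosphate transporter gene of type 2 cells, had 2941 and 2556. The mucin gene Muc1 had 1659.5 and 1532 in mouse controls and 476.8 and 570.5 in rat controls. Ctsh, which encodes a cathepsin of the surfactant pathway, had 508.3 and 943.1 in mouse controls, against 1421 and 1302 in rat controls. Lpcat1, an enzyme of surfactant lipid synthesis, had mouse signals of 391.3 and 673.0.

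Members of the type 2 list that ranked low differed between the species. Sftpd, which encodes the collectin surfactant protein D, had signals of 31.0 and 14.2 in mouse controls, at percentile 22.7, against 1601 and 2361 in rat controls, at percentile 98.4. Cebpa, a transcription factor gene of type 2 cells, went the other way, with 1500.4 and 1465 in mouse controls, at percentile 98.01, against 27.3 and 38.8 in rat controls, at percentile 35.7. For both genes the gap between species was wider than the gap between the arrays of a species. The mouse arrays differed over 2-fold for Sftpd. Species and probe design cannot be told apart here. Nkx2-1, the regulator of surfactant genes named above, had rat signals of 462.0 and 503.8 from its brightest probe set, while its dimmest rat probe set averaged 14.9, and it was not among the ranked mouse genes.

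Alveolar type 1 genes split into a bright and a dim set. Their median percentile was 97.3 over 8 mouse genes and 82.9 over 7 rat genes, with 5 mouse and 3 rat members in the top 10%. On mouse control 2 alone the mouse median was 97.8. Over the 5 members on both arrays, ranked among the genes found on both, the medians were 95.9 in the mouse and 91.2 in the rat. Ager led the list in both species, with 2752 and 2463.5 in rat controls. Cav1, which encodes the main protein of caveolae, had 2053 and 1959 in mouse controls, against 802.9 and 531.2 in rat controls. Pdpn, a membrane glycoprotein gene of type 1 cells and lymphatics, had 227.9 and 286.5 in mouse controls, against 691.3 and 745.9 in rat controls. Hopx, a homeodomain gene of type 1 cells, had mouse signals of 3054 and 3007, and Emp2, a membrane protein gene, had 1541 and 1238. Igfbp2, a binding protein gene for insulin-like growth factors, had 678.8 and 1600.5 in mouse controls, a wider spread than for the other bright members, against 139.7 and 161.7 in rat controls. The water channel gene Aqp5 had rat signals of 278.8 and 306.3. The dim members were the basement membrane collagen genes Col4a3, with 2.9 and 1.9 in mouse controls and 31.9 and 26.7 in rat controls, and Col4a4, with mouse signals of 26.8 and 20.1, together with the anchoring protein gene Akap5, with rat signals of 21.2 and 22.7.

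Airway epithelium was represented mainly by club cell genes. The club cell list had a median percentile of 94.1 over 10 mouse genes and 82.3 over 5 rat genes, and the mouse median was 95.9 without control 1. Scgb1a1 had rat signals of 2209 and 1977, at rank 71 of the rat genes. Cyp4b1, a cytochrome P450 gene of lung, had 2417 and 3044 in mouse controls, against 884.5 and 818.0 in rat controls. The related gene Cyp2f2 had mouse signals of 1690.0 and 4031 and Cyp2f4 had rat signals of 279.4 and 278.6. Selenbp1, a selenium-binding protein gene, had mouse signals of 1296 and 1748, Bpifb1, a secreted airway protein gene, had 545.7 and 1418, and Pigr, the transporter gene for polymeric antibodies, had 538.0 and 772.2. Aldh1a7, an aldehyde dehydrogenase gene, had mouse signals of 217.8 and 514.7. The remaining members were Gsta3, a glutathione transferase gene with 101.3 and 278.6 in mouse controls and 76.5 and 77.2 in rat controls, Reg3g, a lectin gene with 131.1 and 293.1 in mouse controls and 66.3 and 66.1 in rat controls, and Cbr2, a carbonyl reductase gene with mouse signals of 56.2 and 54.3. Most of these mouse genes were brighter on control 2 than on control 1.

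Ciliated cell genes and those of mucous and basal cells ranked lower. Foxj1, the transcription factor gene of ciliated cells, had 323.7 and 384.4 in mouse controls, at percentile 82.5, against 41.1 and 33.4 in rat controls, at percentile 38.3. Rsph1, a radial spoke gene of cilia, had 405.8 and 686.0 in mouse controls, against 43.5 and 44.2 in rat controls. The ciliated list as a whole had a median percentile of 61.6 over 5 mouse genes and 30.5 over 4 rat genes. On mouse control 2 alone it was 68.6, against 51.9 on mouse control 1 alone. Its lowest members were Tppp3, a tubulin-binding protein gene, with 17.0 and 12.1 in mouse controls, and the dynein gene Dnah5, with 2.6 and 1.7 in rat controls. The mucous and basal cell list had a median percentile of 6.33 over 8 mouse genes and 19.5 over 5 rat genes, with 8.88 on mouse control 2 alone. The gel-forming mucin gene Muc5ac had 2.6 and 2.0 in mouse controls and 19.1 and 8.9 in rat controls, and the basal keratin gene Krt5 had 6.4 and 3.8 in mouse controls and 4.8 and 8.8 in rat controls. Tff2, a mucosal trefoil peptide gene, was the highest of the list in the mouse with 281.6 and 220.3, against 6.6 and 19.1 in rat controls.

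Endothelial genes were bright in the mouse and spread more widely in the rat. The list had a median percentile of 89.8 over 22 mouse genes and 78.7 over 13 rat genes, with 11 mouse and 2 rat members in the top 10%. On mouse control 2 alone the median was 88.6. Over the 12 members on both arrays, ranked among the genes found on both, the medians were 84.9 in the mouse and 67.9 in the rat. Eng, a co-receptor gene for transforming growth factor beta, had mouse signals of 4018 and 2943, Cdh5, the junctional cadherin gene, had 2535 and 1656.5, and Ramp2, a receptor partner for adrenomedullin, had 2398 and 1438. Cldn5, a tight junction gene, had mouse signals of 1903 and 1707. These 4 genes were not among the ranked rat genes. Ace, which encodes the angiotensin-converting enzyme of lung capillaries, had 453.3 and 587.1 in mouse controls, against 871.7 and 770.6 in rat controls. The carbonic anhydrase gene Car4, a capillary marker, had 570.3 and 538.2 in mouse controls, against 484.7 and 375.9 in rat controls. Pecam1, an adhesion molecule gene of all endothelium, had 77.5 and 50.0 in mouse controls, at percentile 40.9, against 873.8 and 670.7 in rat controls, at percentile 93.6. Vwf, the von Willebrand factor gene of larger vessels, had 1227 and 1280.0 in mouse controls, at percentile 97.4, against 20.9 and 10.4 in rat controls, at percentile 22.5. Vwf and Pecam1 thus took opposite places in the 2 species. The brightest and dimmest mouse probe sets of Vwf averaged 1254 and 6.6.

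Other endothelial genes were spread over high and low ranks. Those given here ran from percentile 28.9 for Ednrb to 97.3 for Hpgd in the mouse. In the rat they ran from 13.7 for Sox17 to 88.9 for Calcrl. The growth factor receptor gene Kdr had 521.8 and 444.5 in mouse controls and 109.2 and 141.4 in rat controls, and Flt1, a receptor gene for the same ligand family, had 443.0 and 407.3 in mouse controls and 93.2 and 73.1 in rat controls. The prostaglandin dehydrogenase gene Hpgd had 1505 and 956.5 in mouse controls, against 85.4 and 88.4 in rat controls. Sox17, an arterial transcription factor gene, had 643.8 and 274.1 in mouse controls, against 12.1 and 3.7 in rat controls. The angiopoietin receptor gene family was represented by Tie1, with mouse signals of 769.4 and 734.9, and by Tek, with 506.9 and 351.1. Nos3, the endothelial nitric oxide synthase gene, had 53.4 and 26.8 in mouse controls and 109.3 and 86.3 in rat controls, and the endothelin receptor gene Ednrb had mouse signals of 49.6 and 17.0. Calcrl, which pairs with Ramp2 to form a receptor, had 73.0 and 60.3 in mouse controls, against 531.9 and 371.3 in rat controls.

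Fibroblast and matrix genes ranked near the surfactant genes. The list had a median percentile of 97.1 over 20 mouse genes and 96.9 over 14 rat genes, with 14 mouse and 12 rat members in the top 10%. Without mouse control 1 the mouse median was 93.4. Mgp, which encodes the matrix Gla protein, had 2044 and 1793 in mouse controls, against 3564 and 3037 in rat controls. The fibrillar collagen gene Col1a1 had 2973 and 1127 in mouse controls, against 1700.0 and 1755.5 in rat controls. Col3a1, a collagen gene of distensible tissue, had 1309.5 and 428.8 in mouse controls, against 2152.5 and 1942 in rat controls. Eln, which encodes the elastin of alveolar walls, had 6706 and 1400.2 in mouse controls, against 1064 and 1171 in rat controls. Eln was higher on mouse control 1 than on mouse control 2, and so were both collagen genes. Decorin, encoded by Dcn, did not: it had 1456 and 1741 in mouse controls and 1079 and 1080 in rat controls. Vim, the intermediate filament gene of mesenchyme, had 26.9 and 12.3 in mouse controls, at percentile 20.9, against 1389 and 1666 in rat controls, at percentile 97.4.

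Smooth muscle and pericyte genes had median percentiles of 80.04 over 13 mouse genes and 82.1 over 11 rat genes. The mouse median was 87.1 on control 2 alone, against 73.3 on control 1 alone. Acta2, the smooth muscle actin gene, had 799.4 and 1244 in mouse controls and 1090.1 and 1136 in rat controls. Tagln, an actin-binding protein gene, had 751.6 and 958.7 in mouse controls and 1024 and 1158 in rat controls. Myh11, the smooth muscle myosin gene, had 426.0 and 499.6 in mouse controls and 286.7 and 299.1 in rat controls. These 3 genes held like places in both species. Mylk, the myosin light chain kinase gene, had mouse signals of 1972 and 1447. Pdgfrb, a pericyte receptor gene, was lower, with 229.5 and 101.3 in mouse controls and 12.9 and 17.2 in rat controls.

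Antigen presentation genes were bright in both species, and macrophage genes were bright in part. In the mouse 6 of 17 macrophage genes were in the top 10% and 3 below the 25th percentile, against 5 and 0 of 8 in the rat. Lyz2, a lysozyme gene of macrophages and type 2 cells, had 3037 and 2888 in mouse controls and 3373 and 3092 in rat controls. The protease genes Ctsd and Ctss had 958.9 and 1654 for Ctsd and 1007 and 1097 for Ctss in mouse controls. In rat controls they had 1613 and 1381 for Ctsd and 1600.1 and 1247 for Ctss. The mouse chitinase-like gene Chil3, a product of airspace macrophages, had 900.5 and 832.8. The list median was 78.9 over 17 mouse genes and 93.4 over 8 rat genes. In the mouse it was 81.4 on control 2 alone and 71.1 on control 1 alone. Over the 8 members on both arrays, ranked among the genes found on both, the medians were 82.2 in the mouse and 92.2 in the rat. The median difference of a gene, mouse less rat, was -0.54 points. Dim members in the mouse were the scavenger receptor gene Marco with 12.6 and 4.7, Adgre1, which encodes the F4/80 antigen, with 16.9 and 8.0, and the receptor subunit gene Fcer1g with 6.1 and 28.9. Cd74, the invariant chain gene of class II presentation, had 2913 and 3039.9 in mouse controls and 2942 and 2932 in rat controls. Class II genes had a median percentile of 93.1 in the mouse and 95.4 in the rat, with 7 members each, led after Cd74 by H2-Aa with 1587 and 1692 in mouse controls and RT1-Da with 2542 and 2322 in rat controls. Without mouse control 1 the class II median of the mouse was 95.8.

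Globin transcripts ranked at the top among genes of blood cells. In the rat, Hbb-b1 had 3426 and 2608 and Hba-a3 had 2164 and 2550.2, beside Hbb at rank 5. Alas2, the enzyme of heme synthesis in red cells, had 513.6 and 586.7 in mouse controls and 1234 and 1253 in rat controls. The neutrophil list included S100a8 and S100a9, which encode calcium-binding proteins. S100a8 had 367.7 and 963.7 in mouse controls, against 1548 and 1684 in rat controls. S100a9 had 202.5 and 456.4 in mouse controls, against 1773 and 1633 in rat controls. Over the whole neutrophil list, the median percentile was 45.4 over 12 mouse genes and 81.2 over 6 rat genes. Over the 6 members on both arrays, ranked among the genes found on both, the medians were 52.0 in the mouse and 77.8 in the rat. T and NK cell genes had medians of 26.6 over 17 mouse genes and 53.1 over 15 rat genes, with Ccl5, a chemokine gene, at 140.0 and 122.0 in mouse controls and 806.5 and 765.5 in rat controls. The B cell gene Ighm, which encodes the heavy chain of IgM, had mouse signals of 437.9 and 1009, with 16 probe sets that averaged between 1.20 and 723 over the mouse controls. Pf4, a platelet chemokine gene, had 24.3 and 3.6 in mouse controls, against 674.3 and 801.8 in rat controls. Without mouse control 1 the neutrophil median was 45.3 and the T and NK cell median 27.0.

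Cardiac muscle genes gave signal in the lung RNA of both species. The atrial light chain gene Myl7 had 770.6 and 1585.5 in mouse controls and 749.3 and 775.7 in rat controls, and the cardiac actin gene Actc1 had 919.8 and 1959 in mouse controls and 800.1 and 731.2 in rat controls. Myl4, another atrial light chain gene, had 359.7 and 1145 in mouse controls and 240.1 and 223.1 in rat controls, and Myh6, the alpha myosin heavy chain gene, had 634.7 and 837.1 in mouse controls, against 39.8 and 39.4 in rat controls. The list median was 74.99 over 18 mouse genes and 60.0 over 15 rat genes, and in the mouse it was 58.6 on control 1 alone and 81.8 on control 2 alone. Pulmonary veins of rodents are known to carry a sleeve of atrial type muscle, and the source of the signal was not tested. Skeletal muscle genes had lower medians, 30.7 over 15 mouse genes and 44.3 over 12 rat genes, and adipose and mesothelium genes had 56.6 over 13 mouse genes and 50.3 over 10 rat genes. Without mouse control 1 the mouse medians of these 2 lists were 30.6 and 56.7.

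Genes known from other organs ranked low. Over 5 lists (liver, neuron and glia, pancreas and intestine, testis and retina, pituitary and kidney) none of 72 mouse genes and none of 72 rat genes reached the top 10%. Their median percentiles were 17.4 in the mouse and 23.1 in the rat, with 18.3 on mouse control 2 alone. The mucous and basal cell list lay lower than each of the 5 lists in both species. The highest mean was 301.9 in the mouse and 505 in the rat, both for Cyp2e1, a cytochrome P450 gene known foremost from liver. Albumin, encoded by Alb, had 11.9 and 16.9 in mouse controls and 36.5 and 30.6 in rat controls, and the insulin gene Ins2 had 2.8 and 1.9 in mouse controls, against 328.4 and 339.7 in rat controls. The 3 rat probe sets of Ins2 averaged between 2.25 and 334. By contrast, the 10 lung lists held 59 of 119 mouse genes in the top 10%, with a median of 89.8, and 40 of 82 rat genes, with a median of 89.2. The lung lists held 57 mouse genes in the top 10% on mouse control 2 alone, with a median of 88.6. The lists were chosen with earlier results of these data known, so this contrast is a description and not a test.

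**Figure D2:**
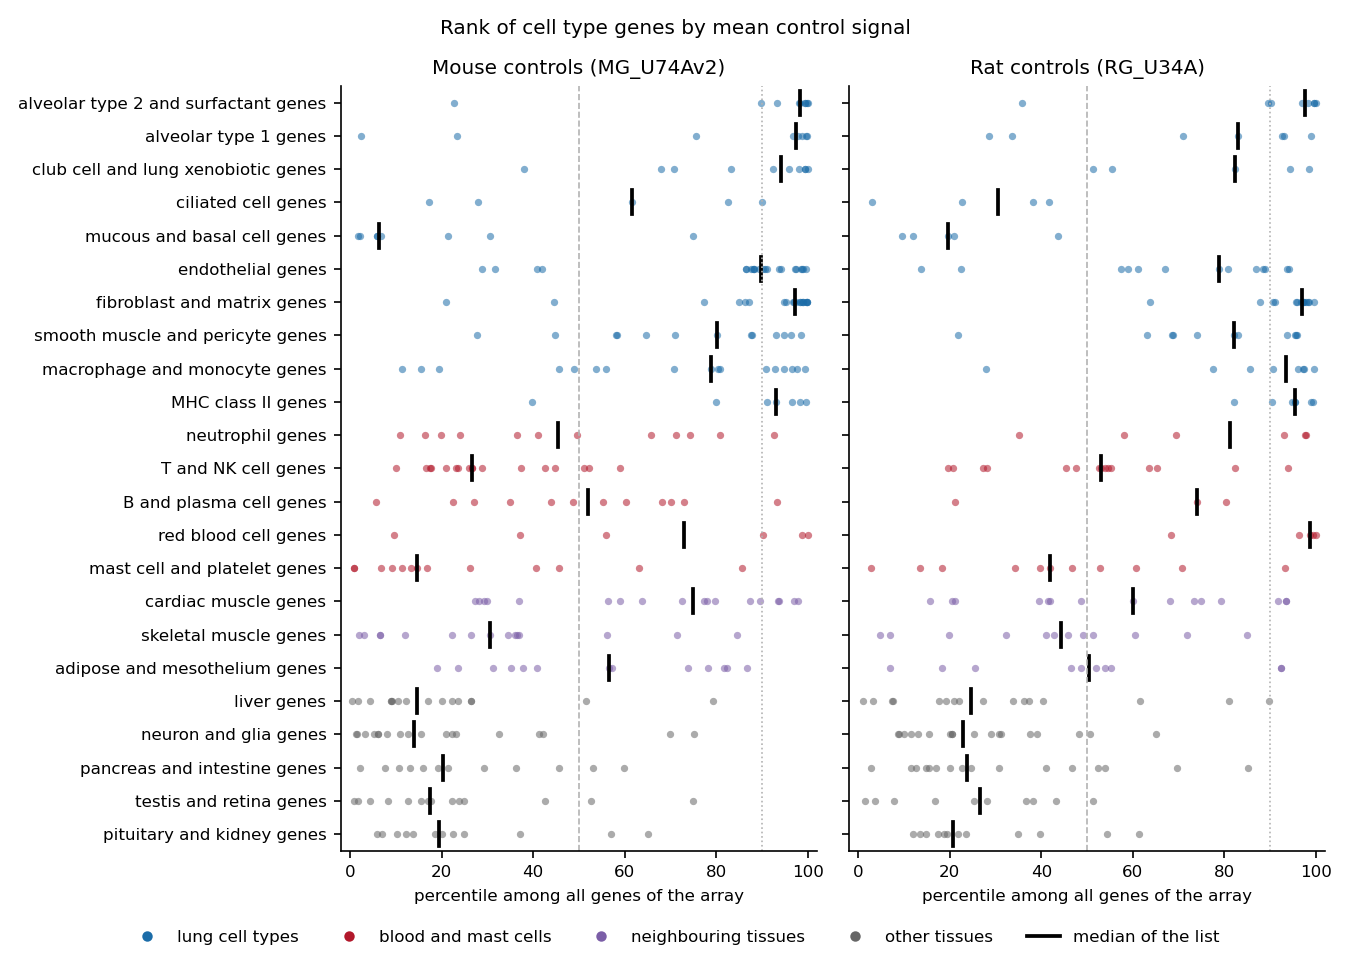
Percentiles of cell type genes among all genes of the array in mouse (left) and rat (right), 1 point per gene, with the list median as a black bar. Dashed and dotted lines stand at the 50th and 90th percentiles. Alveolar type 2 medians are 98.3 and 97.6, fibroblast and matrix medians 97.1 and 96.9, and no gene of the 5 other-tissue lists passes the 90th percentile.

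Genes of general cell functions shared the upper ranks. Ribosomal protein genes had a median percentile of 95.6 over 36 mouse genes and 98.9 over 40 rat genes, and held 2.92% of the summed signal in the mouse and 8.87% in the rat. In the mouse, 11 of the 36 lay below the 25th percentile, among them Rpl32 with signals of 7.3 and 6.7 and Rps14 with 7.6 and 3.4, and in the rat 0 of the 40 did. Cytoskeleton genes had medians of 98.2 in both species and included Tmsb4x, the actin-sequestering thymosin gene, with 4360.4 and 3849 in mouse controls and 3710.4 and 2896 in rat controls. Antioxidant genes had medians of 91.0 in the mouse and 93.3 in the rat, with Gpx3, the extracellular glutathione peroxidase gene, at 3833 and 3540.2 in mouse controls and 3094 and 2894.5 in rat controls. Lysosomal genes had medians of 95.5 in mouse controls and 97.2 in rat controls, and respiratory chain genes 86.3 in the mouse and 88.0 in the rat. Proteasome genes had medians of 81.3 in mouse controls and 87.2 in rat controls, and glycolysis genes 80.9 in both. On mouse control 2 alone the medians were 96.3 for ribosomal protein, 98.01 for cytoskeleton and 93.4 for antioxidant genes. They were 95.9 for lysosomal, 88.7 for respiratory chain and 83.3 for proteasome genes. The glycolysis median was 87.4 on control 2 alone and 75.6 on control 1 alone.

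Immediate early genes, which cells transcribe within minutes of a stimulus, were measured in these control lungs too. Their median percentile was 85.4 over 19 mouse genes and 78.8 over 14 rat genes, with 86.7 on mouse control 2 alone. Dusp1, a phosphatase gene of the stress response, had 932.4 and 1321 in mouse controls and 828.7 and 759.5 in rat controls. Fos had 183.1 and 1080.1 in mouse controls and 265.6 and 215.8 in rat controls. Jund, a constitutive member of the Jun family, had 2860.1 and 2931 in mouse controls, against 17.6 and 16.1 in rat controls.

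Lung transcription factor genes had median percentiles of 84.5 over 18 mouse genes and 68.0 over 12 rat genes. On mouse control 2 alone the median was 83.1. Above the 50th percentile were 16 mouse and 8 rat genes, and 1 mouse and 2 rat genes lay below the 25th. The lowest percentiles were 20.1 in the mouse and 13.7 in the rat. Cebpd, an acute phase factor gene, had 875.9 and 895.7 in mouse controls and 961.1 and 1135 in rat controls. Nfib, a factor gene of lung maturation, had 912.3 and 856.4 in mouse controls and 277.2 and 346.8 in rat controls. Tcf21, a mesenchymal factor gene, had 577.8 and 312.9 in mouse controls and 442.5 and 384.7 in rat controls. Foxa2 and Foxa1, forkhead genes of airway and alveolar epithelium, had 382.6 and 261.6 for Foxa2 and 249.5 and 375.8 for Foxa1 in mouse controls. In rat controls they had 72.9 and 82.1 for Foxa2 and 10.1 and 17.7 for Foxa1. Gata6 had 95.1 and 200.6 in mouse controls and 237.6 and 193.7 in rat controls, and Sox2, an airway factor gene, had mouse signals of 295.4 and 560.6. Nr3c1, the glucocorticoid receptor gene, had 15.5 and 21.3 in mouse controls and 58.8 and 111.1 in rat controls.

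Ion and water transport genes were spread over high and low ranks. Their median percentiles were 66.8 over 7 mouse genes and 63.7 over 12 rat genes, with 63.0 on mouse control 2 alone. Only 4 of the 7 mouse genes and 7 of the 12 rat genes lay above the 50th percentile. The lowest percentiles were 19.9 in the mouse and 20.2 in the rat. The mouse median was lower when all probe sets of a gene were averaged. The genes named next are among the highest of the list in at least 1 species. Aqp1, the water channel gene of lung capillaries, had 855.8 and 1023 in mouse controls and 1420.0 and 1101 in rat controls. Slc12a2, a chloride cotransporter gene, had 913.2 and 1143 in mouse controls, against 164.9 and 185.2 in rat controls. Atp1b1, the beta subunit gene of the sodium pump, had 210.2 and 151.3 in mouse controls, against 2061 and 2281 in rat controls. Scnn1a, the alpha subunit gene of the epithelial sodium channel, had rat signals of 787.7 and 857.9. Vascular tone genes had a median percentile of 31.7 over 17 mouse genes, with 7 below the 25th percentile and 1 in the top 10%, and of 61.2 over 21 rat genes, with 2 in each of these classes. On mouse control 2 alone the median was 27.0. The highest of the list in the mouse was Ece1, the enzyme that activates endothelin, which had 1264 and 945.9 in mouse controls and 1009.9 and 1152 in rat controls.

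The control arrays agreed more closely in the rat than in the mouse. Across all genes, Pearson's r of log2 signals between the 2 control arrays was 0.941 in mouse controls and 0.958 in rat controls, and Spearman's rho was 0.956 and 0.971. Genes are not independent replicates, so these values describe the arrays. Among genes above the median signal, the median fold between the arrays was 1.24 in the mouse and 1.14 in the rat. More than 2-fold apart were 257 of 4126 such mouse genes, or 6.23%, and 47 of 2368 such rat genes, or 1.98%. Below the median signal 27.4% of mouse genes and 23.7% of rat genes were over 2-fold apart.

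Single genes differed widely between the mouse controls. Higher on control 1 were, beside Xist, the androgen-regulated kidney gene Kap with 643.2 against 8.3 on control 2, the secreted goblet cell gene Clca1 with 657.9 against 56.5, and the elastic fibre gene Mfap4 with 1981 against 336.1. Higher on control 2 were the IgA heavy chain gene Igha with 57.1 on control 1 and 703.4 on control 2, the peroxidase gene Gpx2 with 80.4 and 534.4, Fos with the values above, and the nuclear receptor gene Nr4a1, also an immediate early gene, with 100.9 and 591.1. The cardiac calcium pump gene Atp2a2 had 107.7 on control 1 and 514.0 on control 2. The widest gaps between the rat controls were smaller. Ndufc2, a respiratory chain gene, had 146.9 and 485.2 on rat controls 1 and 2, the integrin gene Itga1 had 188.0 and 543.7, and the complement inhibitor gene Serping1 had 451.7 and 198.6.

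**Figure D3:**
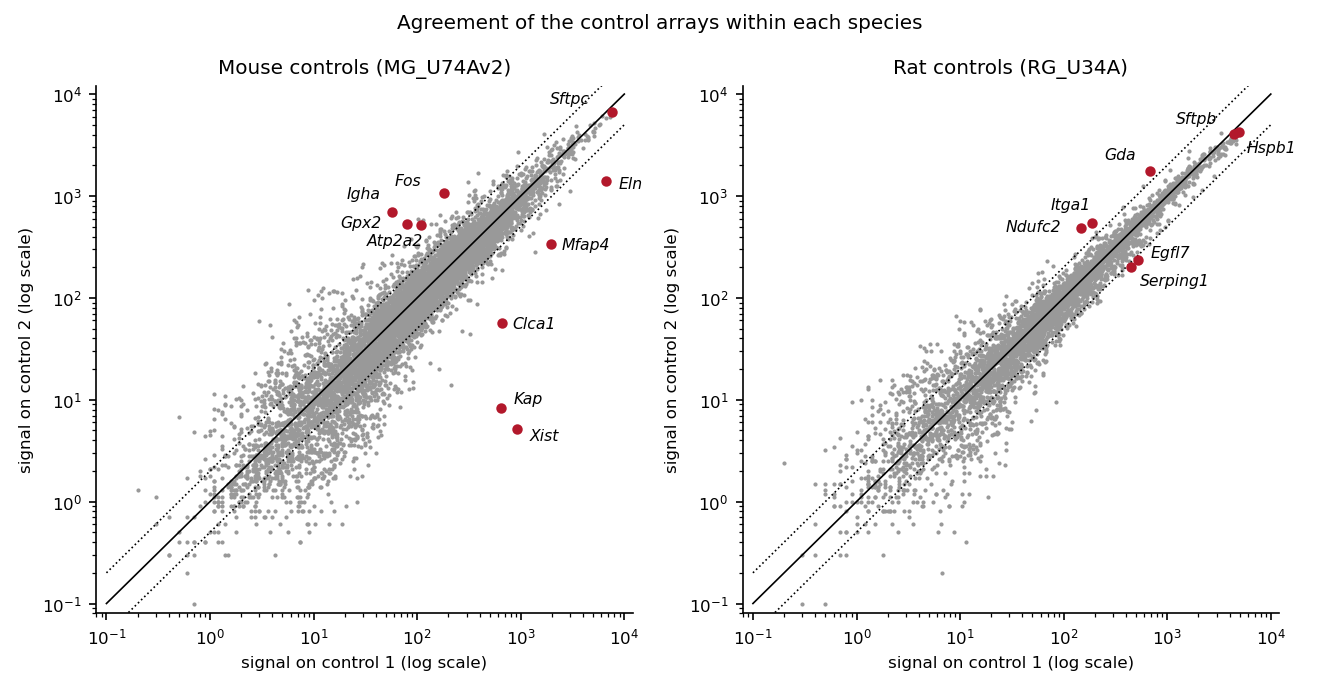
Signal on control 2 against control 1 for every ranked gene, on logarithmic axes, in mouse (left) and rat (right). The solid line marks equal signals and dotted lines a 2-fold difference, and signals under 0.1 are drawn at 0.1. Xist, at 927.3 and 5.2, and Kap, at 643.2 and 8.3, lie far below the line in the mouse. In the rat the labelled genes reach at most 3.30-fold.

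Brighter members of several lists moved together between the mouse controls. Over members above the median signal, the median log2 ratio of control 2 to control 1 was 1.16 for club cell genes, with 8 of 9 higher on control 2, and 1.09 for cardiac muscle genes, with 11 of 13 higher on control 2. The ratio was 1.26 for neutrophil genes, with 4 of 5 higher on control 2, and 0.65 for glycolysis genes, with 9 of 10. Over all 12 measured neutrophil genes, the median percentile went the other way, at 50.1 on control 1 and 45.3 on control 2. The club cell gene that was higher on control 1 was Scgb1a1, the brightest of its list, with a log2 ratio of -0.29. Fibroblast and matrix genes as a list were higher on control 1, with a median of -0.77 and 15 of 18 higher there, and so were endothelial genes, with -0.20 and 16 of 18. Alveolar type 2 genes, at -0.16, and alveolar type 1 genes, at -0.03, shifted little, and the median over all mouse genes above the median signal was -0.01. In the rat, the same ratio lay between -0.34 for endothelial genes and 0.15 for lung transcription factor genes among the 26 lists with at least 3 such members in each species. The cardiac list is the marker list of a neighbouring tissue and held 0.238% of the summed signal on mouse control 1 and 0.478% on mouse control 2, and its part in the other shifts was not tested.

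**Figure D4:**
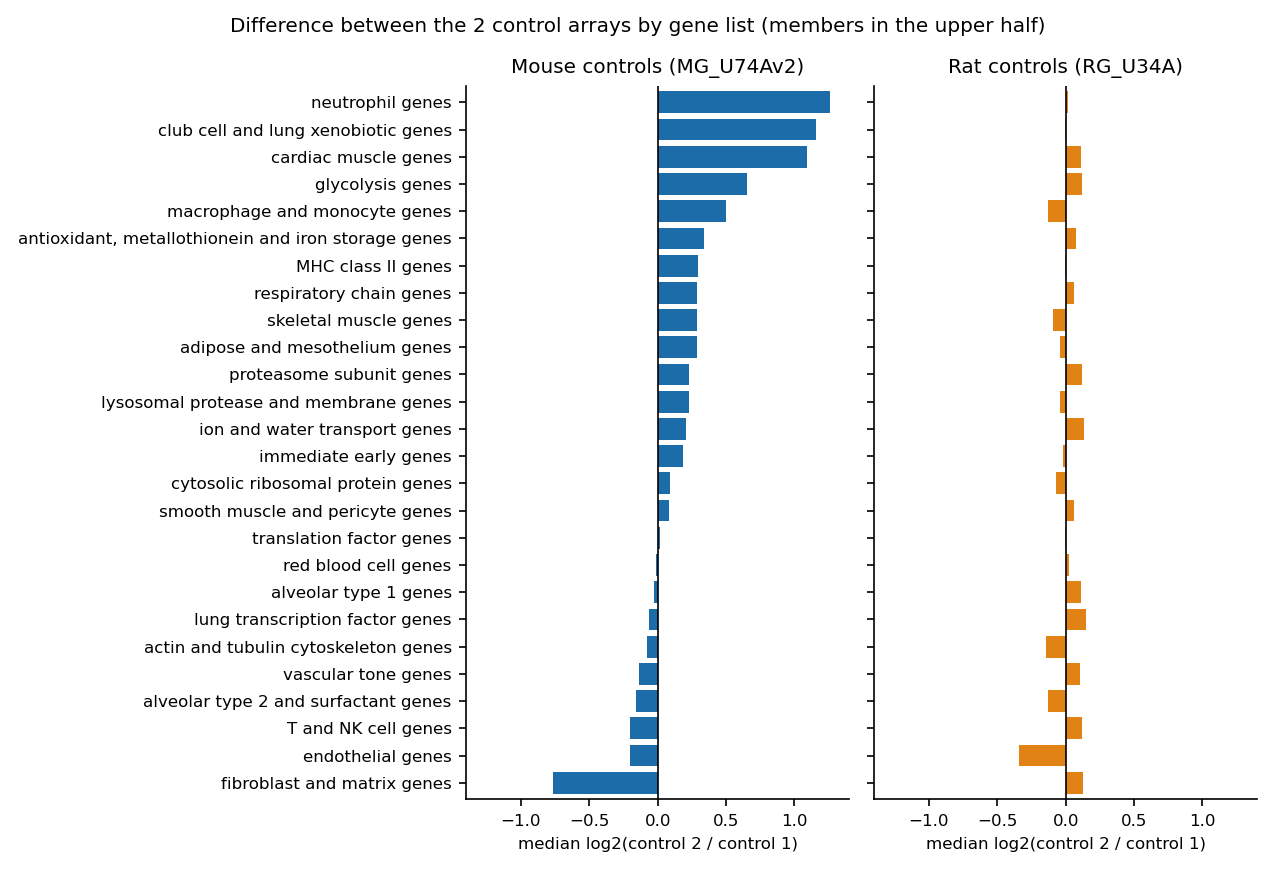
Median log2 ratio of control 2 to control 1 by gene list in mouse (left) and rat (right), over members above the median signal, for the 26 lists with at least 3 such members in each species. Bars right of 0 mean higher on control 2. Mouse lists range from -0.77 for fibroblast and matrix genes to 1.26 for neutrophil genes, and rat lists stay between -0.34 and 0.15.

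Genes found on both arrays were matched by symbol, 3054 in all, which is 37.0% of the mouse genes and 64.5% of the rat genes. Percentiles were taken again among these shared genes. Spearman's rho between the mouse and rat means was 0.602, and the 4 pairs of a mouse and a rat array gave values from 0.579 to 0.607. Between replicates on the same genes, rho was 0.958 in the mouse and 0.976 in the rat. The points share array chemistry and many gene properties, so rho is a description without a p. The difference between species and the difference between probe designs both enter it and cannot be told apart. Of the 305 genes in the top 10% of a species, 147, or 48.2% of each list, were in the top 10% of both, where unrelated lists would share 10%. The median absolute difference in percentile was 14.0 points, 1171 genes (38.3%) lay within 10 points, and 213 genes (6.97%) lay over 50 points apart. Without mouse control 1 rho was 0.609 and the shared top 10% stayed at 48.2%. Among genes with 1 probe set on both arrays rho was 0.583 (1407 genes), and among genes with several on both it was 0.575 (356 genes).

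Genes bright in both species included cell type genes of lung and genes of general cell functions. The 20 shared genes whose lower percentile was highest were led by Sftpb, at percentile 99.8 in the mouse and 100.0 in the rat, Tmsb4x, at 99.7 in both, and Gnas, at 99.6 in the mouse and 99.9 in the rat. They also held Sftpc, Ager, Scgb1a1, the class II gene Cd74 and Lyz2, a gene of macrophages and type 2 cells. Others of the 20 were Gpx3, the protease inhibitor gene Cst3, the interferon-induced membrane protein gene Ifitm3, the class I light chain gene B2m, the membrane protein gene Itm2b, the actin gene Actg1, the ribosomal protein genes Rplp0, Rpl19, Rps10, Rps3 and Rpl7a, and Eef1a1. Genes of type 2, type 1 and club cells were thus among them, while Lyz2 alone came from the macrophage list. The probe sets of Gnas averaged between 2.1 and 3987 in the mouse and between 26.15 and 3916 in the rat.

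Some shared genes stood at opposite ends. Laptm4a, a lysosomal membrane protein gene, had 3170.5 and 3724 in mouse controls, against 6.1 and 0.5 in rat controls, 95.2 points apart. Marchf6, a ubiquitin ligase gene of the endoplasmic reticulum, had 761.1 and 707.6 in mouse controls, against 4.5 and 6.3 in rat controls. The autophagy receptor gene Sqstm1 had 579.6 and 915.5 in mouse controls, against 12.6 and 7.5 in rat controls, and the integrin gene Itgav had 1139.5 and 968.3, against 27.5 and 3.8. In the other direction, Gsta1, a glutathione transferase gene, had 1.9 and 0.9 in mouse controls, against 1282 and 1447 in rat controls, and lay 95.9 points lower in the mouse. Hspb1 had 2.7 and 6.6 in mouse controls, where rat controls had it at rank 3. Calr, a chaperone gene of the endoplasmic reticulum, had 1.6 and 5.9 in mouse controls, against 1785.5 and 1348 in rat controls. Cox8a, a respiratory chain gene, had 5.7 and 6.3 in mouse controls, against 2580.5 and 2404 in rat controls. The 12 genes named by rule on this side also held Eef1g, Rps15, Rps27l, Eif4h, Ssr4, Mif, Mpc1 and Spint2, several of them genes of translation that all cells use. Such genes lie at the bottom of the mouse array, and the rat signals of Laptm4a, Marchf6, Sqstm1 and Itgav were likewise low. The gaps in either direction were therefore not read as differences in transcript amount.

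**Figure D5:**
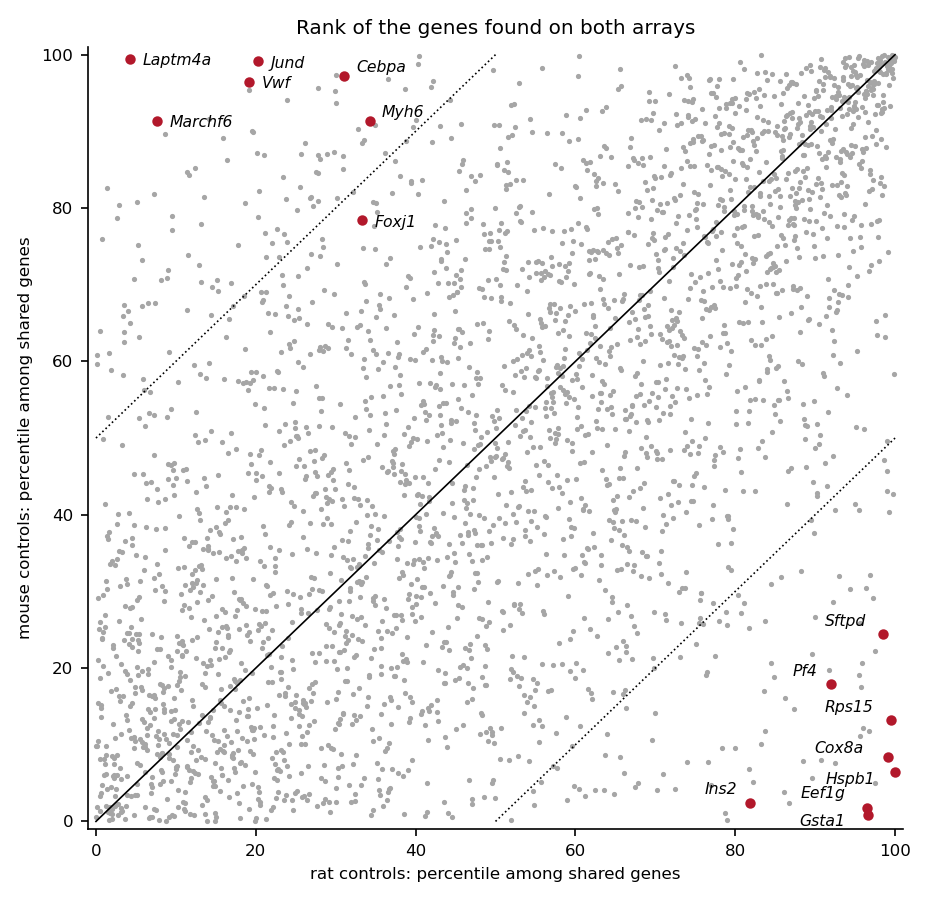
Percentile of 3054 shared genes in mouse controls (vertical) against rat controls (horizontal). The solid line marks equal percentiles, dotted lines a gap of 50 points, and red points are labelled genes. The upper right corner is dense, and 213 genes lie beyond the dotted lines, 113 of them higher in the mouse and 100 higher in the rat.

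Bright genes were shorter in the rat ranking but hardly so in the mouse ranking. The median span of the mouse gene on the genome was 18.0 kb for the top 10% of mouse genes, 19.2 kb for all mouse genes and 15.9 kb for the lowest 10%. For rat genes, measured by the mouse gene of the same symbol, it was 12.3 kb for the top 10%, 22.9 kb for all and 26.7 kb for the lowest 10%. The span had a value for 99.8% of mouse genes and 92.8% of rat genes.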

How the data were processed

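Lung RNA of control mice and rats was measured on 1 array each, 2 per species. The deposited values are probe-set intensities on a linear scale, and the values show that the authors scaled each array: the 2% trimmed means were 150 on the mouse controls and 149 and 150 on the rat controls. The software that made the signals is not given in the sources used here. RNA was, per the labels, copied with an oligo-dT primer and amplified to biotinylated cRNA. Arrays have no counting depth, and their number limits the precision.

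Probe sets were named from the supplied annotation of each array. Of 12422 mouse probe sets, after 66 control probe sets were left out, 10833 had 1 symbol, 396 several and 1193 none. Of 8740 rat probe sets, 7006 had 1 symbol, 308 several and 1426 none. Of 2073 mouse genes with several probe sets, 27.9% had over 16-fold between brightest and dimmest, against 14.4% of 1565 such rat genes. Named genes over this limit included mouse Lyz2, with probe sets averaging 22.45 and 2962, and mouse Cav1, with 44.85 and 2006. Others were mouse Ace, with 4.35 to 520.2, and rat Atp1b1, with 18.45 to 2171. Deposited signals were averaged over the 2 arrays without further normalisation and ranked (Python 3.11.15, pandas 2.3.3, scipy 1.17.1). The percentile is the rank less 0.5 over the number of genes. Log2 ratios used a floor of 0.1. The ranking was tested on simulated data in which all probe sets of a gene found on both arrays had the same level apart from noise. Differences between the probe sets of such a gene were thus not part of that test.

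Gene lists and members were chosen with earlier results of these data known. Named genes were the 30 brightest per species, the 4 highest members of each list and any dim member of a lung list, all measured type 1, type 2, club, endothelial and lung factor genes as candidates, the 20 brightest shared genes, the 12 with the largest gap in each direction between species and the 8 in each direction between arrays. The Y-linked genes, Eef1g, Rps15, Rpl32, Rps14, Alb and the probe-set ranges were picked after their values were seen. A comparison of promoter composition was void, since 79.7% of mouse genes had a promoter entry, under the 80% needed.

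Alternatives were quantile normalisation, a common median, the mean of probe sets, leaving out probe sets with cross-hybridisation suffixes, the geometric mean, leaving out dim genes, synonym matching (chosen after seeing the data) and each array left out.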

Additional observations from a re-analysis of the deposited data

How the results depend on the processing

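No paired analysis was possible because each species has 1 control group and no result comes from a test. Precision is limited by 2 arrays per species and by the probes of each gene. The rank correlation between species, 0.602, was 0.551 without probe sets whose names carry a cross-hybridisation suffix, 0.516 without genes under the 25th percentile and 0.301 over genes above the 50th percentile in at least 1 species. The last 2 settings choose genes by the ranks being correlated, so they narrow its range by construction. It ranged from 0.585 to 0.609 with each array left out, the lowest without mouse control 2. The share of the top 10% found in both species, 48.2%, lay between 45.0% and 48.9% under the settings tried, and was 43.1% for the top 5% and 56.5% for the top 20%. Agreement of the mouse controls, r = 0.941, was 0.942 with quantile normalisation, 0.941 with a common median, 0.943 with the mean of probe sets, 0.941 without suffix probe sets and 0.914 without dim genes. Agreement of the rat controls, r = 0.958, was 0.958, 0.958, 0.959, 0.952 and 0.960 under these settings. Medians of single lists moved too. Leaving out suffix probe sets shifted 8 of 70 list medians by over 10 points, with mouse skeletal muscle genes at 12.98 against 30.7. Without mouse control 2, the mouse cardiac median was 58.6 against 74.99. Leaving out dim genes shifted 16 of 70, as fewer genes are then ranked. The mean of probe sets moved Ighm from percentile 93.3 to 50.3 in the mouse, and dropping suffix probe sets put Psma6 at 6.41 in the rat against 93.6. The cause of the other shifts was not tested.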

Other observations

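Several of the brightest mouse genes belong to no list above. Hp, which encodes the hemoglobin-binding protein haptoglobin, had signals of 3389 and 4869.5 on mouse controls 1 and 2. Scd1, a fatty acid desaturase gene, had 4415 and 3657, and the precursor gene App had 4188.5 and 3532. The aldehyde dehydrogenase gene Aldh1a1 had 3476 and 4272.5. Among bright list members not described above, Gstm1, a glutathione transferase gene of the antioxidant list, had 3106 and 3889.9, and Gsn, which encodes the actin-severing protein gelsolin and is on the fibroblast list, had 3642 and 3947.

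Some of the brightest probe sets match several genes or none and were left out of the ranking. Among the 100 brightest probe sets, 24 matched several symbols and 8 had none in the mouse, and 28 matched several and 18 had none in the rat. A mouse probe set that matches 4 beta globin genes had signals of 6868 and 5499, and a mouse probe set of Lyz1 and Lyz2 had 3915 and 4737. The brightest rat probe set, with 5193 and 3909, matches Myl6 and Myl6l, which encode light chains of nonmuscle and smooth muscle myosin.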
